A study of Mus musculus with 15 samples.

Results

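NmB6D2 is a mouse embryonic stem cell line derived from fertilised embryos, and 47 of the 18193 genes on the array were set apart in it from 4 other embryonic stem cell lines. A gene was taken when its mean over the 3 NmB6D2 arrays lay at least 1 log2 unit, that is 2-fold, above or below the mean of each other line. The rule took 20 genes that were higher and 27 that were lower in NmB6D2. These are 0.11% and 0.148% of all genes, and the measured values chose them, so the differences between NmB6D2 and the other lines are given below as a description with no test.

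NmB6D2 came from naturally ovulated C57BL6 females mated with DBA2 males. R1 is a purchased line from a cross between the substrains 129S1/SvImJ and 129X1/SvJ, and with NmB6D2 it is 1 of 2 lines of fertilised origin. OpB6D2, FpB6D2 and FpB6CBA are parthenogenetic, which means that an oocyte was activated without sperm and the genome is maternal only. For OpB6D2 the oocytes had been ovulated by B6D2F1 females, the F1 of C57BL6 females and DBA2 males. For FpB6D2 and FpB6CBA they had grown in preantral follicles in culture, taken from B6D2F1 females and from B6CBAF1 females, the F1 of C57BL6 females and CBA/ca males. Total RNA of each line was hybridised to 3 Affymetrix arrays, 15 in all, and the values are log2 intensities of 1 probe set per gene. Each line is a single derivation, and the labels do not say that its arrays came from separate cultures, so an SD or p value below measures only the spread between arrays. Line, strain cross and origin cannot be told apart as sources of a difference between 2 lines.

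Embryonic stem cells are grown from the inner cell mass of the blastocyst. In the naive state they keep a network of transcription factors that includes Tbx3 and Prdm14, and mouse embryonic stem cells also transcribe a set of germ-line genes. The outer layer of the blastocyst forms trophoblast, whose stem cells depend on the transcription factor Elf5. In embryonic stem cells the Elf5 promoter is normally methylated at CG dinucleotides and silent.

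The promoter windows of 3 members are shown because their genes stand for both directions, Elf5 for trophoblast and Dazl and Sohlh2 for the germ line. They are RefSeq sequences of the GRCm38.p6 build, from 250 bases before to 50 bases after an annotated start, written 5′ to 3′ on the gene's own strand, with each CG in capitals.
Elf5, upstream start, chr2:103411848-103412147, plus strand: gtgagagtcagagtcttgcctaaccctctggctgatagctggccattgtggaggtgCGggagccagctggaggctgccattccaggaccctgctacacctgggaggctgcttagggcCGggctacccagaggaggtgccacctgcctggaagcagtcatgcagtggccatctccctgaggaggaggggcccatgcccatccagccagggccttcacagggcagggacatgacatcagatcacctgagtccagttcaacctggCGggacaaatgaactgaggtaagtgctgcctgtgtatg
Elf5, downstream start, chr2:103423818-103424117, plus strand: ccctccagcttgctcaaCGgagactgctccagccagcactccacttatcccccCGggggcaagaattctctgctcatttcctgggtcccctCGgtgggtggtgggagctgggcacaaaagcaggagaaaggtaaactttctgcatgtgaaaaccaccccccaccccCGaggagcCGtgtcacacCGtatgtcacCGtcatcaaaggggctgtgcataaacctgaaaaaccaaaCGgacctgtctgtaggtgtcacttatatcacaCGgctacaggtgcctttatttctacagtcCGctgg
Dazl, chr17:50293571-50293870, minus strand: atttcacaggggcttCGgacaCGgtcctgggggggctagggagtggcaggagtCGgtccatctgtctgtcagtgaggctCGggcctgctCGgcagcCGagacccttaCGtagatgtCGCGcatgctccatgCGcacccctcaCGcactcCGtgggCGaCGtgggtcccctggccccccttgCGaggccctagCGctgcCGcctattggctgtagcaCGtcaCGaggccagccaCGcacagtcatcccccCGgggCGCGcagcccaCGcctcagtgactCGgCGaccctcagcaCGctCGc
Sohlh2, chr3:55181794-55182093, plus strand: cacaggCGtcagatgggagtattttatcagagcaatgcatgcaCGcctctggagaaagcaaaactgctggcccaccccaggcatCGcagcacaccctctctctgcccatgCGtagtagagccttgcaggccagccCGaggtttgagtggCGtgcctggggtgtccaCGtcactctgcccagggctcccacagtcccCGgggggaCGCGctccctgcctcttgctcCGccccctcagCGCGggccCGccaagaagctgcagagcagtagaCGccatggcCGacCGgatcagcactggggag
CG reads the same on both strands and was the only motif searched. It stood in 94.6% of the 32851 windows read for all genes, with a median of 7 per window. The upstream Elf5 window held 3 CG and the downstream one 10, and 23.3% and 56.5% of all windows held fewer. Dazl's window held 28 CG, more than 85.8% of all windows, and that of Sohlh2 held 17, more than 68.6%. Methylation was not measured on these arrays.

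All 5 lines carried the defining transcripts of embryonic stem cells. Pou5f1 averaged 11.46 in NmB6D2 and 11.38 to 12.02 in the other lines, Sox2 10.96 against 11.02 to 11.26, and Nanog 10.43 against 9.81 to 11.39. Eif2s3y, a Y-linked translation factor gene, averaged 8.61 in NmB6D2 and 7.99 in R1, against 2.73 to 3.35 in the 3 parthenogenetic lines. Xist, the long RNA of the inactive X chromosome, averaged 4.57 in NmB6D2 and 4.54 to 4.91 elsewhere. The NmB6D2 arrays correlated with each other at 0.998 across the tested genes, and with arrays of other lines at 0.933 to 0.974, a correlation over genes, which are no replicates. The actin control probe sets differed between the 3' and 5' ends of the transcript by 0.478 to 0.530 log2 units on the NmB6D2 arrays, by 0.496 to 0.548 in R1 and OpB6D2, and by 0.616 to 0.757 in the lines from cultured follicles. The part of this difference in the results was not tested.

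In single comparisons by limma, with a Benjamini-Hochberg adjusted p under 0.05 over the 12813 genes that passed a filter on low values and at least 1 log2 unit, NmB6D2 differed from R1 in 1651 genes (12.9%), from FpB6D2 in 1377 (10.7%), from OpB6D2 in 748 (5.84%) and from FpB6CBA in 538 (4.2%). By direction, 5.49% of the tested genes were higher and 7.39% lower in NmB6D2 than in R1, 5.53% and 5.22% than in FpB6D2, 2.6% and 3.24% than in OpB6D2, and 1.63% and 2.57% than in FpB6CBA. All 47 members passed the filter, and all were called against each of the 4 lines, which the rule makes likely. They were 0.156% of the tested genes in the higher direction and 0.211% in the lower. By the same rule OpB6D2 had 18 genes higher and 11 lower than all other lines, FpB6D2 57 and 47, FpB6CBA 108 and 46, and R1 364 and 187. The size of the NmB6D2 set rested on FpB6CBA and on R1. Without FpB6CBA the rule took 158 higher and 98 lower genes, and without R1 it took 34 and 67. FpB6CBA was the nearest line for 13 of the 20 higher and 10 of the 27 lower members, and R1 for 6 and 8.

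No NmB6D2 array overlapped any of the 12 other arrays in any member, which the rule makes likely. The share of all tested genes without overlap was not counted, so nothing is read from this. The distance from the NmB6D2 arrays to the nearest other array ran from 0.587 to 3.01 log2 units among the higher members and from 0.667 to 2.16 among the lower ones. All 3 NmB6D2 arrays lay at least 1 log2 unit beyond all 12 others in 8 higher and 15 lower members. The gap, meaning the NmB6D2 mean minus the nearest other line mean, was under 1.5 log2 units in size in 16 higher and 19 lower members. It exceeded the whole range of the other 4 line means in 13 of 20 and 19 of 27, which was not counted over all genes either.

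**Figure D1:**
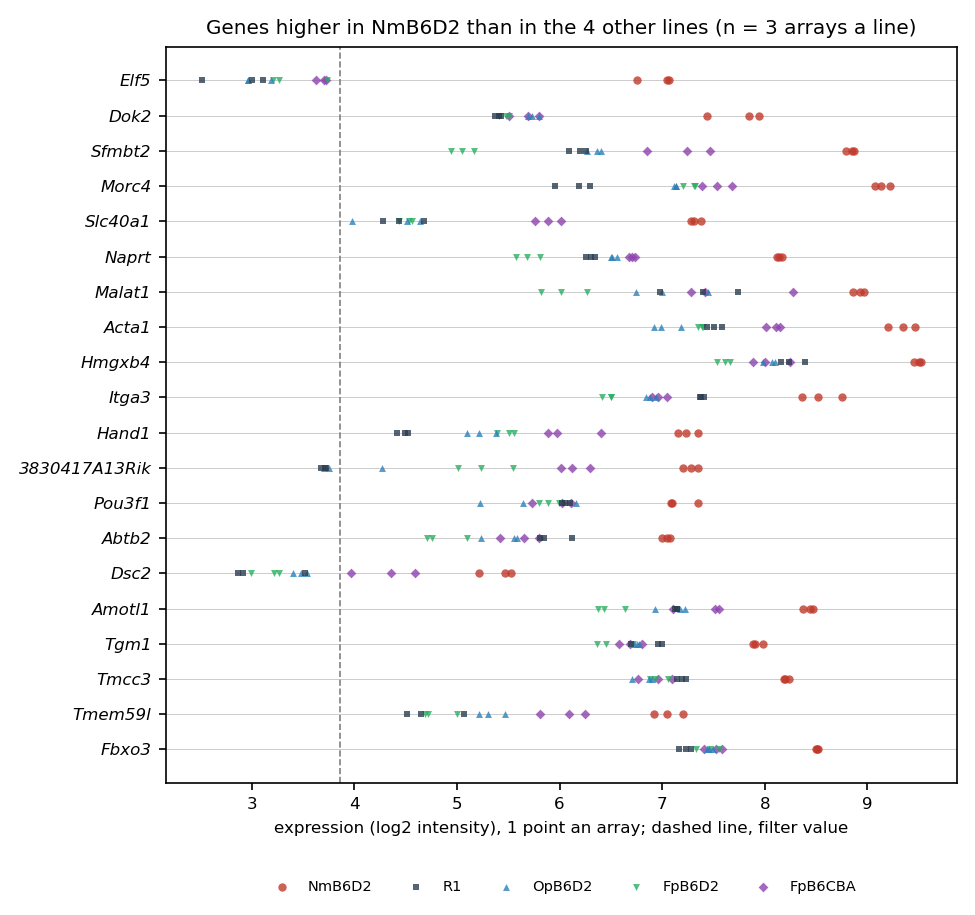
Log2 intensity of the 20 genes higher in NmB6D2, 1 point per array and 3 arrays per line, ordered by the gap to the nearest line from Elf5 (3.27) to Fbxo3 (1.00). The dashed line is the filter value of 3.86. The NmB6D2 points lie to the right of all others in every gene, which the rule makes likely.

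Among the higher members, 3 act in trophoblast or the placenta. Elf5 measured 7.06, 6.75 and 7.05 on the NmB6D2 arrays, against 2.52, 3.01 and 3.11 in R1, 3.19, 2.96 and 2.96 in OpB6D2, 3.74, 3.27 and 3.21 in FpB6D2, and 3.72, 3.71 and 3.63 in FpB6CBA. It was high in NmB6D2 alone, and all 12 other arrays lay below the filter value of 3.86, so the difference is at least 8.51-fold. Its mean was 6.95 ± 0.17 in NmB6D2 and 3.69 ± 0.05 in FpB6CBA, the nearest line (SD, n = 3 each, gap 3.27, SE 0.16). A second Elf5 probe set averaged 4.54 in NmB6D2 and 2.80 to 3.15 in the other lines, all 4 again below the filter value, which makes the difference at least 1.59-fold.

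Sfmbt2, a Polycomb-related gene that is expressed from the paternal allele in the placenta, measured 8.79, 8.87 and 8.85 in NmB6D2, against 6.20, 6.26 and 6.10 in R1, 6.36, 6.40 and 6.27 in OpB6D2, 5.17, 5.05 and 4.94 in FpB6D2, and 7.24, 7.46 and 6.85 in FpB6CBA. The gap was 1.65 (SE 0.12), or 3.14-fold. Among the 4 other lines Sfmbt2 also varied, over 2.13 log2 units, and the highest of them was the parthenogenetic FpB6CBA. Hand1, a basic helix-loop-helix factor of trophoblast giant cells and heart, measured 7.23, 7.16 and 7.35 in NmB6D2, against 4.42 to 4.52 in R1, 5.10 to 5.39 in OpB6D2, 5.40 to 5.56 in FpB6D2 and 5.89 to 6.40 in FpB6CBA. Its gap was 1.16 (SE 0.11), and its second probe set kept the order with a gap of 0.53. The means of the lines other than NmB6D2 again differed, by up to 1.61 log2 units.

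The trophectoderm list held 21 tested genes, of which Elf5 and Hand1 are members by the rule. Of the other 19, 3 passed an adjusted p of 0.05 against all 4 lines at any size of difference and were higher in NmB6D2, with none lower (15.8%, where 4.07% of all tested genes were higher and 4.83% lower). They were Esx1, a placental homeobox gene (7.53 in NmB6D2 and 5.54 to 6.95 elsewhere, largest limma adjusted p = 0.00096), Id2, an inhibitor of helix-loop-helix factors (8.81 and 6.90 to 7.87, largest adjusted p = 7.7e-08), and Krt7, a simple-epithelium keratin (8.57 and 4.49 to 7.88, largest adjusted p = 0.00016). Cdx2, a founding factor of trophectoderm, averaged 4.17 in NmB6D2 and 3.79 to 4.25 elsewhere, close to the filter value in every line. Eomes averaged 7.49 against 7.12 to 10.08, and Gata3 4.56 against 3.89 to 4.95, with NmB6D2 between other lines in both. Without Elf5 and Hand1 the mean of the list ran from 7.05 to 7.11 on the NmB6D2 arrays, against 6.88 to 6.91 in FpB6CBA, 6.69 to 6.78 in R1 and 5.86 to 6.55 in OpB6D2 and FpB6D2. In RNA from a whole culture, more cells of a type and more RNA per cell cannot be told apart.

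Pou3f1, a POU factor of the epiblast after implantation and of neural progenitors, measured 7.08, 7.35 and 7.10 in NmB6D2, against 6.02 to 6.10 in R1, 5.22 to 6.16 in OpB6D2, 5.80 to 5.99 in FpB6D2 and 5.73 to 6.11 in FpB6CBA. The means of the 4 other lines had a range of 0.38. A second probe set gave a gap of 1.04. The primed epiblast list did not move as one. Of its 18 tested genes other than Pou3f1, Cldn6 and Dnmt3b passed the test as higher against all 4 lines and none as lower. That is 11.1% higher, where 4.07% of all tested genes were higher and 4.83% lower. The median difference from the mean of the other lines was -0.13 over these 18. At 1 log2 unit 5 genes of the whole list were called higher and 5 lower than in R1, and 2 and 2 than in OpB6D2. Against FpB6D2 4 were called higher and 1 lower, and against FpB6CBA 2 and 2. The rule puts Pou3f1 in each higher count. Of all tested genes, in the same order, 5.49%, 2.6%, 5.53% and 1.63% were called higher and 7.39%, 3.24%, 5.22% and 2.57% lower. Dnmt3b, a de novo DNA methyltransferase, averaged 10.68 in NmB6D2 and 8.63 to 9.87 elsewhere (largest limma adjusted p = 1.9e-08).

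Another 5 higher members are given together by a grouping made after their values were seen, and of these Dsc2 alone is in the list of epithelial junction and keratin genes. Dsc2, a desmosomal cadherin, measured 5.53, 5.46 and 5.22 in NmB6D2, against 2.87 to 3.54 in R1, OpB6D2 and FpB6D2, below the filter value, and 3.97 to 4.59 in FpB6CBA. Itga3, the alpha chain of a laminin-binding integrin, averaged 8.54 ± 0.19 in NmB6D2, against 7.38 ± 0.02 in R1, the nearest line (SD, n = 3 each). Acta1, skeletal muscle actin, averaged 9.34 ± 0.13 in NmB6D2, against 8.09 ± 0.07 in FpB6CBA and 7.03 to 7.51 in the other lines. Amotl1, a junction scaffold of the Hippo pathway, and Tgm1, a transglutaminase that cross-links the cornified envelope of the epidermis, had gaps of 1.04 each.

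Of the 35 tested genes of that list other than Dsc2, 12 passed the test as higher in NmB6D2 than in all 4 lines (34.3%). All 12 did so by less than 1 log2 unit from the nearest line, and none passed as lower. Of all tested genes 4.07% passed as higher and 4.83% as lower. The median difference between NmB6D2 and the mean of the other lines was 0.87 log2 units over these 35, beside -0.01 over all tested genes. From FpB6CBA alone it was 0.22, with Dsc2 included. The mean of the 35 ran from 8.11 to 8.13 on the NmB6D2 arrays, against 7.97 to 8.11 in FpB6CBA and 6.41 to 7.12 in the remaining lines. Epcam, an epithelial adhesion molecule, averaged 10.77 in NmB6D2 and 8.42 to 9.92 elsewhere (largest limma adjusted p = 3.2e-08). Cdh1, E-cadherin, averaged 10.89 in NmB6D2 and 9.26 to 10.51 elsewhere (largest adjusted p = 0.00016). The tight junction claudin Cldn4 averaged 8.59 and 6.40 to 7.90 (largest adjusted p = 1.0e-04), and FpB6CBA was the nearest line for all 3. At 1 log2 unit, 25 of the 36 tested genes of the list were called higher in NmB6D2 than in OpB6D2 and none lower. Against FpB6CBA 1 was called higher and 1 lower. The rule puts Dsc2 in both higher counts, so it was the 1 against FpB6CBA. Of all tested genes 2.6% were called higher and 3.24% lower than in OpB6D2, and 1.63% and 2.57% than in FpB6CBA.

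**Figure D2:**
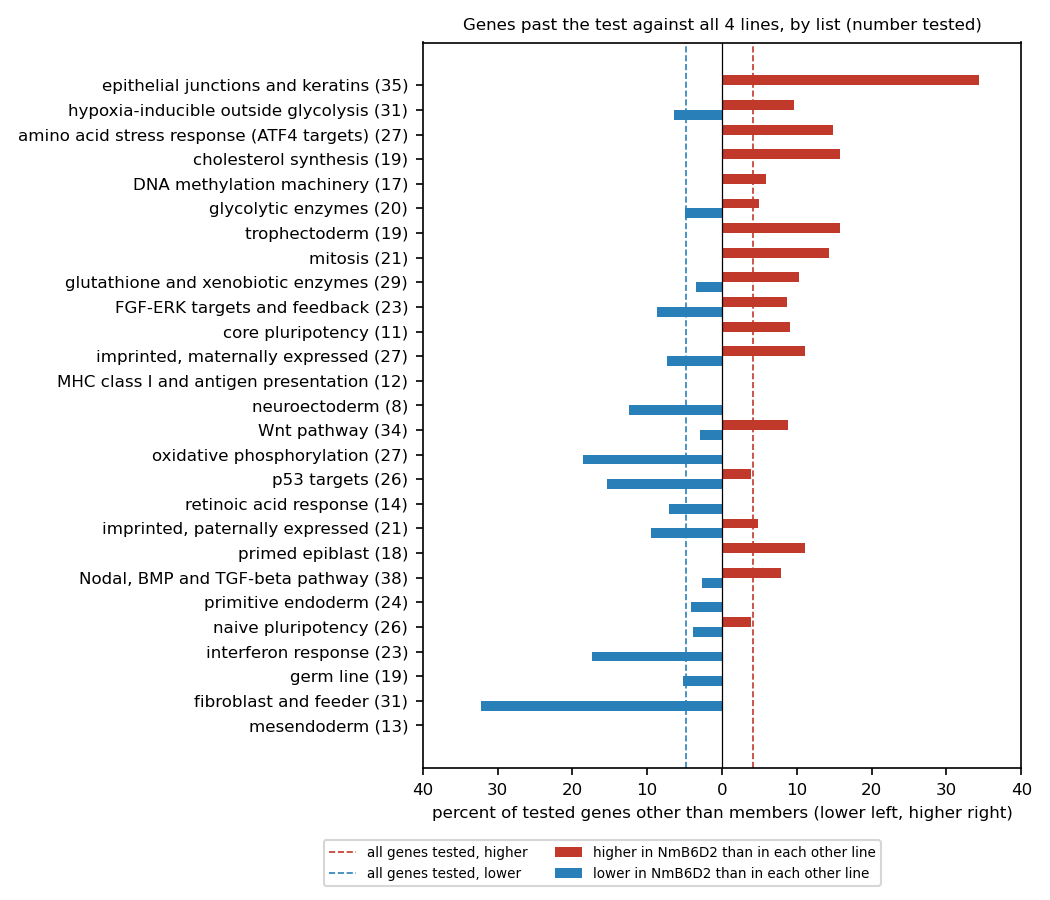
Share of each list's tested genes other than the members (number in brackets) that passed an adjusted p of 0.05 in NmB6D2 against all 4 other lines at any size of difference, higher to the right and lower to the left. Lists run by the median difference; dashed lines are the shares over all tested genes (4.07% and 4.83%), and the epithelial and the fibroblast lists reach farthest, with 34.3% higher and 32.3% lower.

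The remaining higher members act in signalling, transport, metabolism and the nucleus. Dok2, a docking adaptor of receptor tyrosine kinases best known in blood cells, measured 7.94, 7.44 and 7.85 in NmB6D2, against 5.37 to 5.80 on the 12 other arrays. It had the second largest gap, 2.00 (SE 0.11, 4.00-fold), and the other lines stood within 0.34 of each other. Slc40a1, the iron exporter ferroportin, averaged 7.32 ± 0.05 in NmB6D2, against 5.89 ± 0.13 in FpB6CBA and 4.38 to 4.51 in the other lines, and its second probe set also passed the rule (gap 1.37). Naprt, which starts NAD synthesis from nicotinate, averaged 8.14 ± 0.02 in NmB6D2, against 5.69 to 6.71 elsewhere.

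Morc4, an X-linked gene of the MORC ATPase family, averaged 9.14 ± 0.08 in NmB6D2, against 7.54 ± 0.14 in FpB6CBA and 6.15 to 7.27 in the other lines (SD, n = 3 each). The HMG-box gene Hmgxb4 averaged 9.49 ± 0.03 in NmB6D2, against 7.60 to 8.26 elsewhere. Malat1, a long non-coding RNA retained in the nucleus, averaged 8.92 ± 0.06 in NmB6D2, against 7.66 ± 0.54 in FpB6CBA, whose replicate 3 stood at 8.27. Its 2 other strong probe sets gave larger gaps, 2.86 and 2.28, while a further one, at 4.20 in NmB6D2, lay between the other lines.

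The members chosen neither by rank nor through a list are named so that every member is accounted for. Among the higher ones these are the X-linked 3830417A13Rik (gap 1.14), Abtb2 (1.11), Amotl1, Tgm1 and Tmcc3 (1.02). At the threshold stood Tmem59l (1.01) and the F-box gene Fbxo3 (1.00) just inside, and Wnt7b (0.99) and Adk (0.98) just outside. Over the 415 tested X-linked genes the median difference between NmB6D2 and the mean of the 4 other lines was -0.23. The 3 parthenogenetic lines among them had low Eif2s3y, unlike R1, and the median was not taken against each line alone.

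Elf5, Abtb2 and Fbxo3 are neighbours on chromosome 2, a position noticed after the members were known. By the RefSeq gene order of GRCm38.p6 their starts lie within 616 kb, and no other members lie within 1 Mb of each other. The stretch is bounded by 2 members, so they and Abtb2 are left out of the count. Of all tested genes 4.07% passed the test as higher against all 4 lines. Of the 4 other tested genes between Elf5 and Fbxo3, 2 did. These were Nat10, an RNA acetyltransferase (8.40 in NmB6D2 and 7.77 to 7.91 elsewhere, largest limma adjusted p = 1.0e-05), and Caprin1, an RNA-binding protein gene (12.26 and 11.58 to 11.88, largest adjusted p = 6.9e-05). Cat, which encodes catalase, averaged 8.97 in NmB6D2 and 8.86 in FpB6CBA (adjusted p = 0.43) and 8.09 to 8.35 in the other lines, and Lmo2 lay between other lines. None of the 10 tested genes before Elf5 and none of the 10 after Fbxo3 passed in either direction. The median difference from the other lines was 0.55 over the 4 genes within the stretch, -0.07 before and -0.03 after it, which with 4 genes is a description only. Fbxo3 was the member lost most often under other settings, being taken in 19 of 26. A second probe set of Fbxo3 averaged 7.61 in NmB6D2, 7.63 in R1 and 6.63 to 7.05 in the parthenogenetic lines. Abtb2 was taken in 24 of 26. Its second probe set averaged 6.07 in NmB6D2, 5.93 in FpB6CBA and 4.97 to 5.43 in the other lines. That gap of 0.15 fell short of the rule, whereas the second probe set of Elf5 passed it.

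**Figure D3:**
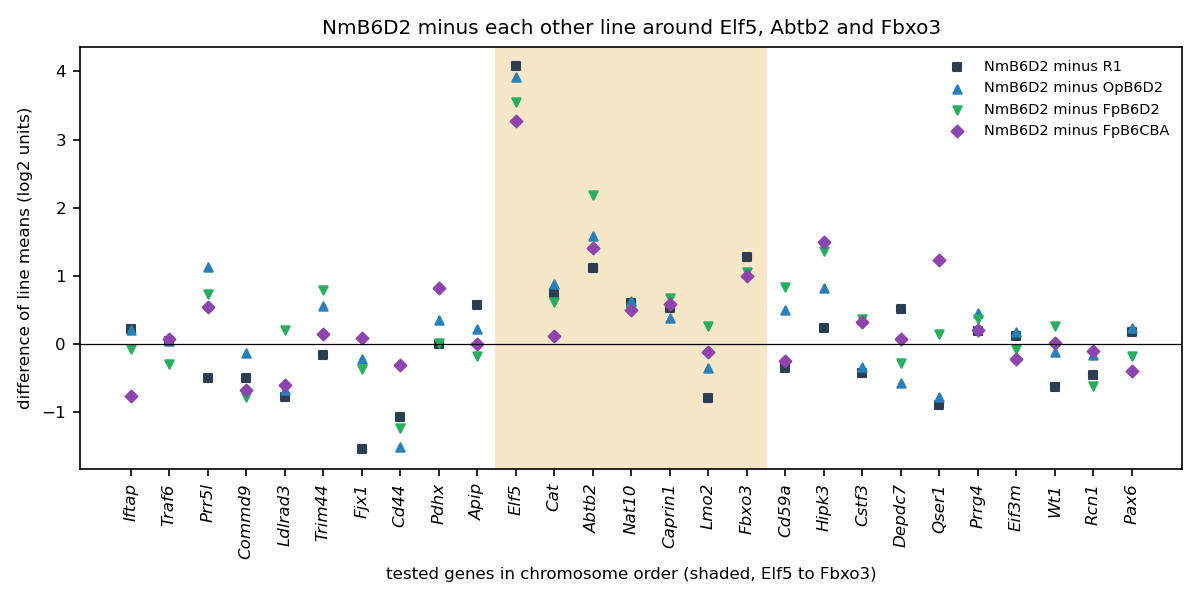
Difference in log2 units between the NmB6D2 mean and each other line mean for 27 tested genes in chromosome order, with the stretch from Elf5 to Fbxo3 shaded. Every gene of the stretch but Lmo2 lies above 0 against all 4 lines, and outside it Hipk3, Prrg4 and, barely, Pdhx do.

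**Figure D4:**
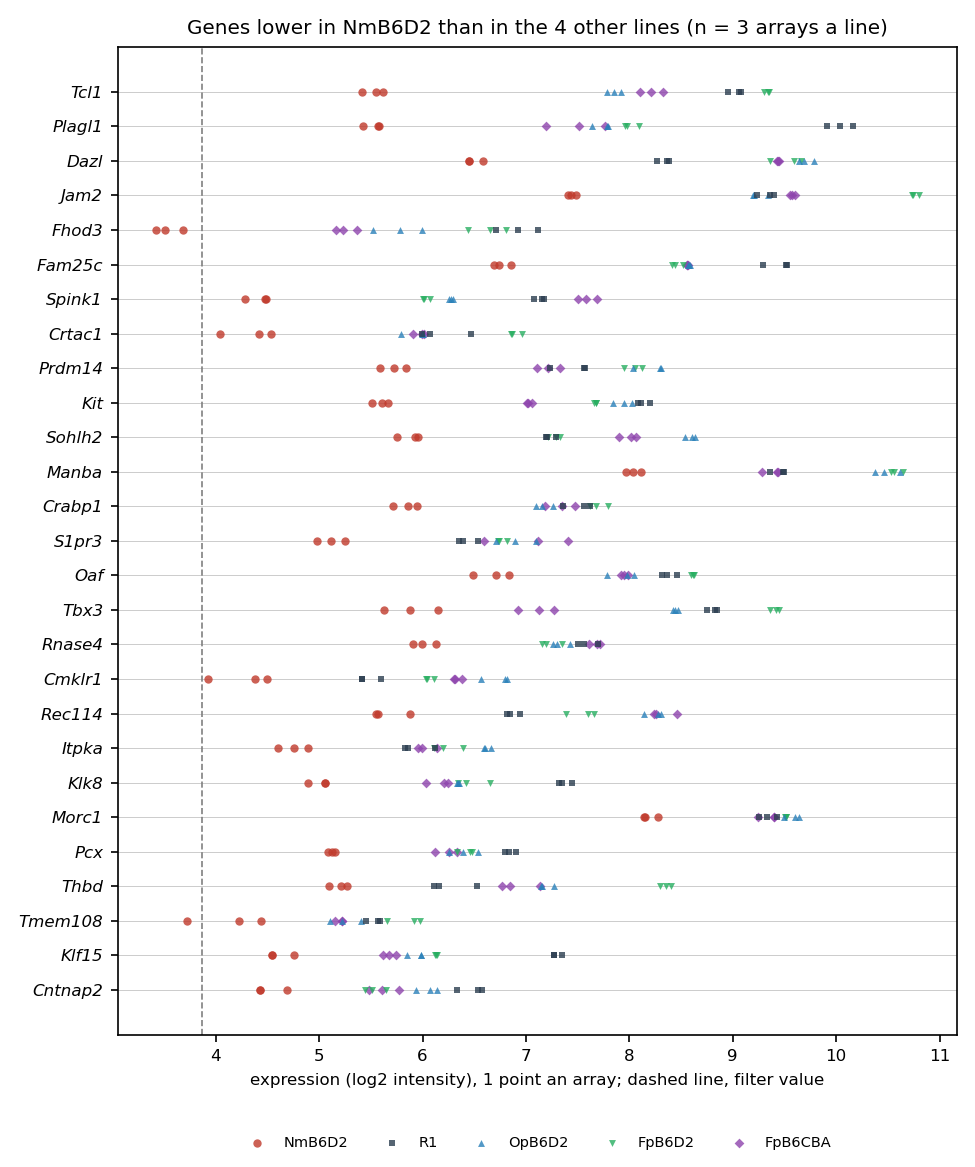
Log2 intensity of the 27 genes lower in NmB6D2, 1 point per array and 3 arrays per line, ordered by the gap from Tcl1 (-2.32) to Cntnap2 (-1.02). The NmB6D2 points lie to the left of all others in every gene, which the rule makes likely, and those of Fhod3 lie below the filter value (dashed line).

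The naive pluripotency list held 5 lower members among its 31 tested genes, where 0.211% of all tested genes were members, and the rule picked them from these values. Tcl1, a co-activator of the kinase Akt, measured 5.41, 5.62 and 5.55 in NmB6D2, against 9.06, 8.95 and 9.08 in R1, 7.85, 7.78 and 7.92 in OpB6D2, 9.30, 9.35 and 9.35 in FpB6D2, and 8.33, 8.21 and 8.10 in FpB6CBA. This was the widest gap among the lower members, -2.32 (SE 0.07), or 5.01-fold below OpB6D2. Tbx3, a T-box factor of the naive network, measured 5.87, 5.63 and 6.15 in NmB6D2, against 8.75 to 8.84 in R1, 8.42 to 8.47 in OpB6D2, 9.36 to 9.45 in FpB6D2 and 6.92 to 7.27 in FpB6CBA. FpB6CBA stood between NmB6D2 and the other 3 lines, and the means of the 4 lines other than NmB6D2 had a range of 2.30 log2 units.

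Prdm14, a regulator of naive pluripotency and germ cell fate, measured 5.84, 5.59 and 5.73 in NmB6D2, against 7.10 to 7.57 in FpB6CBA and R1 and 7.95 to 8.31 in FpB6D2 and OpB6D2. Jam2, a junctional adhesion molecule, averaged 7.44 ± 0.04 in NmB6D2, against 9.25 to 10.76 in the other lines. Its 4 other probe sets all had NmB6D2 lowest, with gaps of -0.50 to -1.57. Manba, a lysosomal mannosidase, averaged 8.04 ± 0.07 in NmB6D2, against 9.38 to 10.58 elsewhere.

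Outside these 5 members the naive list was near the background in the count of genes that passed against all 4 lines at once. Of its 26 other tested genes 1, Fbxo15, passed the test as lower against all 4 lines (3.85%, beside 4.83% of all tested genes) and 1, Cdh1, as higher. The median difference from the mean of the other lines was -0.27 over these 26. With the members included it was -0.77 against FpB6D2, -0.62 against OpB6D2, -0.31 against R1 and -0.07 against FpB6CBA. Single comparisons at 1 log2 unit, members included, called 13 of the 31 genes lower than in FpB6D2 and 11 than in OpB6D2. They called 9 lower than in R1 and 7 than in FpB6CBA. In the same order 1, 1, 1 and 2 genes were called higher. Of all tested genes, 5.22%, 3.24%, 7.39% and 2.57% were called lower. The rule puts the 5 members in each of the lower counts and in the medians of the 31 genes. Nothing is therefore read from these counts beside the shares. Better known factors of the network, named after their values were seen, did not meet the rule, as FpB6CBA was about as low. Klf4 averaged 9.40 in NmB6D2, 8.95 in FpB6CBA and 10.60 to 10.91 in the other lines, and Esrrb 9.42, 9.50 and 10.13 to 10.31.

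Germ-line genes were also among the lower members. Dazl, an RNA-binding protein of germ cells, measured 6.45, 6.59 and 6.45 in NmB6D2, against 8.39, 8.27 and 8.36 in R1, 9.69, 9.78 and 9.64 in OpB6D2, 9.66, 9.59 and 9.36 in FpB6D2, and 9.43, 9.44 and 9.45 in FpB6CBA. The 2 fertilised lines were the 2 lowest, and NmB6D2 lay 1.84 below R1 (SE 0.08), or 3.58-fold. The second Dazl probe set gave a gap of -1.88. Kit, the receptor of stem cell factor, measured 5.51, 5.66 and 5.61 in NmB6D2, against 7.01 to 7.06 in FpB6CBA and 7.66 to 8.20 in the other lines.

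Sohlh2, a helix-loop-helix factor of oocytes and spermatogonia, averaged 5.88 ± 0.11 in NmB6D2, against 7.23 ± 0.05 in R1 and 7.28 to 8.59 in the parthenogenetic lines. Rec114, needed for meiotic DNA breaks, averaged 5.67 ± 0.19 in NmB6D2, against 6.87 ± 0.07 in R1 and 7.55 to 8.32 in the other 3 lines. Morc1, which represses transposons in the male germ line, averaged 8.19 ± 0.08 in NmB6D2, against 9.34 to 9.58 elsewhere. These 3 genes were in no list, and their germ-line grouping was made after their values were seen.

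The germ line list of 21 tested genes did not move as one. Of its 19 genes other than Dazl and Kit, 1 passed the test as lower against all 4 lines (5.26%, beside 4.83% of all tested genes), Tex19.2 (4.24 in NmB6D2 and 4.93 to 7.31 elsewhere, largest limma adjusted p = 0.00087), and none passed as higher. Ddx4, a germ-cell RNA helicase, averaged 7.43 in NmB6D2 and 7.49 in FpB6CBA, against 5.61 to 6.02 in the other 3 lines. The median difference from the mean of the other lines was -0.30 over these 19, and over the whole list it was 0.12 against R1.

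Imprinted genes appeared once in each direction. Plagl1, a zinc finger gene expressed from the paternal allele, measured 5.42, 5.58 and 5.57 in NmB6D2, against 10.16, 10.04 and 9.91 in R1, 7.78, 7.79 and 7.64 in OpB6D2, 7.95, 8.09 and 7.98 in FpB6D2, and 7.51, 7.76 and 7.19 in FpB6CBA. The 2 fertilised lines thus stood at the lowest and the highest levels, with the parthenogenetic lines between them. This rests on 1 probe set of a kind that can also bind other transcripts, while the 2 other Plagl1 probe sets averaged 3.06 and 3.08 in NmB6D2 and 3.10 to 4.08 elsewhere. Of the 21 other tested genes expressed from the paternal allele, Nnat passed the test as higher and Impact and Ndn as lower against all 4 lines. Nnat averaged 8.71 in NmB6D2, 8.05 in OpB6D2, 6.42 to 6.80 in the lines from cultured follicles and 4.17 in R1. Of the 27 tested genes expressed from the maternal allele none was a member, 3 passed as higher (Grb10, Ppp1r9a and Pon2) and 2 as lower (Commd1 and Cd81). The shares higher and lower were 4.76% and 9.52% of the 21 and 11.1% and 7.41% of the 27 genes. Of all tested genes 4.07% passed as higher and 4.83% as lower. With so few imprinted genes nothing is read from these shares.

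The other lower members were receptors, secreted proteins and metabolic genes. Crabp1, which binds retinoic acid in the cytoplasm, averaged 5.84 ± 0.12 in NmB6D2, against 7.17 to 7.70 elsewhere. Its relative Crabp2 also passed the test as lower against all 4 lines (5.40 in NmB6D2 and 5.99 to 7.04 elsewhere, largest limma adjusted p = 2.1e-05). It was the only 1 of the 14 other tested genes of the retinoic acid list to do so (7.14%, beside 4.83% of all tested genes). Thbd, the thrombin receptor thrombomodulin, which is also a marker of primitive endoderm, averaged 5.19 ± 0.09 in NmB6D2, against 6.26 in R1, 7.19 in OpB6D2, 8.35 in FpB6D2 and 6.92 in FpB6CBA.

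Fhod3, a formin that assembles actin, averaged 3.54 ± 0.13 in NmB6D2, below the filter value, against 5.25 to 6.92 elsewhere, a difference of at least 2.62-fold. Spink1, a trypsin inhibitor, averaged 4.41 ± 0.11 in NmB6D2, against 6.03 to 7.59, and Crtac1, a matrix protein gene of cartilage, 4.33 ± 0.26 against 5.93 to 6.89. Fam25c averaged 6.76 ± 0.09 in NmB6D2, against 8.46 to 9.44. All 4 had gaps between -1.60 and -1.72.

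Of the members left, most of them also named to account for every gene, gaps of -1.12 to -1.31 were found for the sphingosine-1-phosphate receptor S1pr3, for Oaf, for the secreted ribonuclease Rnase4, for the chemerin receptor Cmklr1, for the inositol trisphosphate kinase Itpka, for the protease Klk8 and for Pcx, which encodes pyruvate carboxylase. Tmem108 had a gap of -1.07. The transcription factor Klf15 (-1.06) and the neuronal adhesion protein Cntnap2 (-1.02) stood just inside the threshold, and Aldh1l1 (-0.98) and Cd302 (-0.96) just outside.

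Some markers of fibroblasts, which serve as feeder cells for embryonic stem cells, were lower in NmB6D2 as well. None of the 31 tested markers was a member. The test was passed as lower against all 4 lines by 10 of them (32.3%, beside 4.83% of all tested genes) and as higher by none, with a list median of -0.63. The mean of the 31 markers ran from 6.94 to 7.06 on the NmB6D2 arrays, against 8.14 to 8.22 in R1, 7.47 to 7.87 in OpB6D2, 7.40 to 7.50 in FpB6D2 and 7.34 to 7.64 in FpB6CBA. Vim averaged 10.78 in NmB6D2 and 11.08 to 12.94 elsewhere (largest limma adjusted p = 0.0042). The collagen genes Col1a1 and Col3a1 were not among the 10, with 7.12 and 5.56 in NmB6D2 and 7.05 and 5.49 in FpB6D2. All 31 markers averaged above the filter value in NmB6D2, and the part of these markers in the lower members was not tested.

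The members also varied among the 4 other lines. The F test among these compares no NmB6D2 mean, but the NmB6D2 arrays enter its estimate of the spread, and their values chose the members. Among the 4 other lines 11 of the 20 higher and 15 of the 27 lower members passed the F test with a range of at least 1 log2 unit, where 29.6% of all tested genes did. The rule used the same line means, so nothing is read from this share. Morc1 had the narrowest range among the other lines, 0.24 log2 units, and Plagl1 the widest, 2.55.

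Different probe sets of a gene did not always give the same answer. Of the 47 members 23 had a single probe set, and 20 had another above the filter, of which 11 had another that passed the rule. That of Elf5 passed against levels below the filter value. That of Crtac1 passed with NmB6D2 itself below that value (3.18, against 4.21 to 4.50 elsewhere). Of the 39 such other probe sets, 12 passed the rule in the same direction, 20 had NmB6D2 at the extreme but short of 1 log2 unit, and 7 did not have it at the extreme. Applied to every probe set, the rule took 54 higher and 38 lower. Among these, 24 higher probe sets belonged to 22 genes whose strongest probe set did not pass, against 3 lower ones (Vegfc, Ldhb and Ptgs2), and all of these genes are named after their values were seen. Kdm5d, a Y-linked demethylase gene, had such a probe set at 4.19 in NmB6D2 and 2.46 to 2.73 elsewhere, below the filter value. Wnk1 had 1 at 9.41 in NmB6D2 and 6.57 to 8.11 elsewhere, whereas its strongest probe set averaged 10.34 in NmB6D2 and 10.07 over the other lines. Tra2a, a splicing regulator, had 1 at 5.22 and 2.98 to 3.90, with its strongest at 9.23 in NmB6D2 and 9.18 over the other lines. In 10 of the 24 the strongest probe set had NmB6D2 between the other lines or on the opposite side, and in 6 it had a gap of 0.5 or more the same way.

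**Figure D5:**
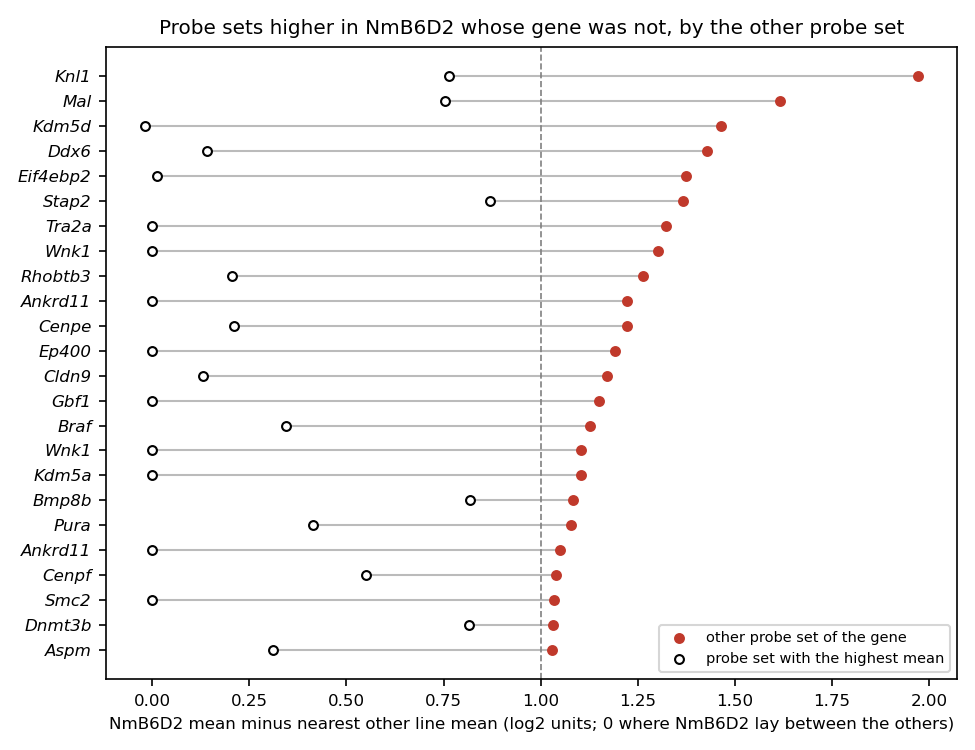
Gap in log2 units between NmB6D2 and the nearest other line for the 24 higher probe sets whose gene was no member (filled) and for the strongest probe set of the same gene (open), with the threshold of 1 dashed. The filled points run from 1.03 to 1.97, and the open points from -0.02 to 0.87.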

How the data were processed

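Affymetrix mouse arrays measured total RNA of 5 lines, 3 arrays each. The authors deposited RMA values made with affy, per the submitters' processing notes, without versions or settings. That they are log2 values was inferred from the deposited range of 1.99 to 13.96, and no further normalisation was applied. Of 45101 probe sets 34945 had 1 gene symbol, 932 several and 9160 none, and 64 were controls; 34741 were matched to GRCm38.p6 gene names by gene ID, 143 by symbol and 61 not at all. Each of 18193 genes was represented by its brightest probe set on average over all arrays. Genes were tested when 3 or more arrays reached 3.86, the median value of the whole table. Promoter windows on chromosome 18 were not used.

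One limma fit (limma 3.58.1, R 4.3.3) gave NmB6D2 minus each line and an F test among the other 4 lines, with Benjamini-Hochberg adjustment over the 12813 genes tested. A call needed adjusted p under 0.05 and 1 log2 unit; gene lists were described by any size of difference, a choice made after seeing the data, and their counts leave out the members except where the text says otherwise. A line mean below 3.86 gives a bound on the fold, computed against that value. The members, the lists and the tests were chosen with earlier results of these data known. Named genes were the 12 members with the largest gap each way except clone names, up to 4 members per list, the 2 genes nearest to the threshold on each side, pluripotency markers, Xist and Y-linked genes; other members, list genes and neighbouring genes were named after their values were seen. The fit was tested on simulated data. The number of arrays limits the precision. Titles number 13 of the 15 arrays. Of 6 same-numbered pairs of an NmB6D2 array with another line's array none deviated together (correlation -0.18 to 0.06), so no pairing was used. Pairs among the other lines were not checked. Alternatives were other filters, probe set rules, scalings, variance models and thresholds, and leaving out arrays and lines. Plots used matplotlib 3.10.9.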

Additional observations from a re-analysis of the deposited data

Results flagged for a closer look

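Probe sets with no gene or with several genes in the annotation stand outside the set of genes, and 6 of them passed the same rule. Among those with no gene, 1428670_at averaged 7.67 in NmB6D2 and 4.80 to 5.40 in the other lines, and 1456319_at averaged 8.81 in NmB6D2 and 5.31 to 6.81 elsewhere. Smaller differences were found for 1423323_at, with 4.45 in NmB6D2 and 2.87 to 3.19 elsewhere, and for 1456112_at, with 9.17 in NmB6D2 and 6.77 to 8.15 elsewhere. Lower in NmB6D2 was 1450033_a_at, with 4.41 against 5.50 to 6.25. Annotated to several genes, 1420357_s_at averaged 3.20 in NmB6D2, 4.61 in R1, 9.15 in OpB6D2, 8.74 in FpB6D2 and 8.32 in FpB6CBA, so that both fertilised lines lay below the 3 parthenogenetic ones. The rule used these values, and none of the differences was tested.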

How the results depend on the processing

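The set depends mainly on the threshold and on which lines are compared. At 1.5-fold the rule took 93 higher and 98 lower genes, and at 4-fold 2 and 1. Calls at these thresholds were 3703 and 340 against R1, 2201 and 117 against OpB6D2, 3429 and 180 against FpB6D2, 1930 and 70 against FpB6CBA, and 7417 and 765 among the other 4 lines. By adjusted p alone, an alternative added after seeing the data, they were 8058, 6370, 7729, 6444 and 11020 in the same order. Without R1 the rule took 34 and 67 genes, with 2085 calls among the remaining other lines, and without FpB6CBA 158 and 98, with 2198 calls. Also added after seeing the data, the demand that all 3 NmB6D2 arrays lie 1 log2 unit beyond all 12 others left 8 and 15 genes, and the rule on every probe set took 54 higher. Leaving out 1 array at a time gave 18 to 23 higher and 26 to 30 lower genes, and 1640 to 1681, 748 to 775, 1353 to 1383, 526 to 570 and 3784 to 3838 calls in the order above.

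The array numbers were not found to pair NmB6D2 arrays with those of other lines. With the number as a block 21 higher genes were found, 17 of them members, and 28 lower, 26 of them members, with 1688, 797, 1388, 596 and 3966 calls. Averaging all probe sets of a gene kept 12 of the 20 higher and 20 of the 27 lower members, and leaving out probe sets whose names end in _x_at, _s_at or _a_at kept 16 and 21, Plagl1 being lost in both. Over 26 settings that changed neither the threshold nor the lines, 22 of the 47 members were taken every time. Fbxo3 was taken in 19, and Tmcc3 and Cntnap2 in 21 each. Some of these settings could not drop a member, such as using no filter or fitting only the arrays of the lines compared. No result reversed its direction. Signal over background limits what can be said of Elf5 outside NmB6D2, of Dsc2 in R1, OpB6D2 and FpB6D2, of 3830417A13Rik in R1 and of Fhod3 in NmB6D2, all below the filter value.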

Other observations

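Some lists without members held genes that passed the test against all 4 lines, as 4.07% of all tested genes did in the higher and 4.83% in the lower direction. Of 27 tested targets of the amino acid stress factor ATF4, 4 passed as higher in NmB6D2 (14.8%) and none as lower, among them Psph, an enzyme of serine synthesis (10.54 in NmB6D2 and 9.06 to 10.12 elsewhere, largest limma adjusted p = 9.3e-05). Of 19 tested genes of cholesterol synthesis, 3 passed as higher (15.8%) and none as lower, including Hmgcs1 (10.97 in NmB6D2 and 10.15 to 10.47 elsewhere, largest adjusted p = 7.8e-06). Of 27 tested genes of oxidative phosphorylation, 5 passed as lower (18.5%) and none as higher, by at most 0.32 log2 units from the nearest line, as for Sdhb (10.35 in NmB6D2 and 10.67 to 10.94 elsewhere). In the interferon response list 4 of 23 passed as lower (17.4%), 3 of them Ifitm genes, of which Ifitm1 averaged 7.87 in NmB6D2 and 8.10 to 11.63 elsewhere. Of 26 tested p53 targets 4 passed as lower (15.4%) and 1 as higher, and of 21 tested mitosis genes 3 passed as higher (14.3%) and none as lower. In the hypoxia-inducible list 3 of 31 passed as higher (9.68%) and 2 as lower (6.45%), and its median difference of 0.51 from the mean of the other lines was -0.07 from FpB6CBA alone. Most other lists here were also near 0 or on the opposite side against a single line. From FpB6CBA alone the median was -0.15 for the ATF4 targets and 0.03 for cholesterol synthesis. From R1 alone it was 0.02 for oxidative phosphorylation and 0.02 for p53 targets, and from OpB6D2 alone 0.09 for interferon response. For the mitosis list it ran from 0.08 (FpB6D2) to 0.54 (R1).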
